A study of Mus musculus with 20 samples.

Results

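Transcript levels were examined for 7 mouse genes whose products degrade, bind or carry amyloid-beta: the proteases Mme, Ece1, Ece2 and Ide, the receptors Lrp1 and Sorl1, and the chaperone Clu. They were chosen by name from 55487 gene entries, and all 7 were found by their Ensembl identifiers. In each tissue, 5 of the 7 had enough reads to be tested between animals given HSP70 and animals given YB-1. Between hippocampus and cortex 6 did. None of those tested was called different in either comparison. Mme within a tissue and Ece2 in both comparisons had too few reads for the main tests, so changes in them could be missed.

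The libraries came from hippocampus and cortex of NMRI mice (the labels give NMRI as the genotype; ages are not given in the labels). All animals, in every group, had undergone olfactory bulbectomy, surgical removal of the olfactory bulbs, which is used in rodents as a model of neurodegenerative and depression-like change. Starting 14 days after surgery the animals received either 4 µg of human recombinant HSP70, a chaperone of the heat shock family, or 6.4 µg of recombinant YB-1, a protein that binds RNA and DNA, by the intranasal route, 1 time a day for 21 days. The 20 poly(A) RNA libraries form 4 groups of 5: hippocampus with HSP70, hippocampus with YB-1, cortex with HSP70 and cortex with YB-1. Vehicle-treated and unoperated animals were not analysed here, so every treatment comparison sets YB-1 against HSP70. The labels do not name the animal behind each library, so p-values measure only the spread between these samples.

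Amyloid-beta is a peptide cut from the amyloid precursor protein, and its level in brain depends on removal as well as production. Removal works by several routes: zinc metalloproteases cut the peptide, and receptors and chaperones bind it and carry it into cells, across vessel walls or along endosomal sorting paths. Transcript counts measure neither the proteins nor their activity, and amyloid-beta was not measured in these files.

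The 4 proteases are shown first by the part of their coding sequence that specifies the zinc-binding site. This site is what they share, and Ece1 and Ece2 are close relatives, so shared bases are counted below. Sequences are from GENCODE M21 transcripts (GRCm38), 5′ to 3′, each 63 bases long. Capitals mark the 15 bases that code for the zinc-binding motif.
Mme: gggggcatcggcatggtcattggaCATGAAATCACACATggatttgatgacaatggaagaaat
Ece1: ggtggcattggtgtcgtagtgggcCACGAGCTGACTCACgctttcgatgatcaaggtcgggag
Ece2: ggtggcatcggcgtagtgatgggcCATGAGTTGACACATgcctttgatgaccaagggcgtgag
Ide: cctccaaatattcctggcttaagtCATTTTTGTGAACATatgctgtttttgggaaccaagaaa
In Mme, Ece1 and Ece2, members of the neprilysin family, the motif lies late in the coding sequence, at bases 1750 to 1764, 1768 to 1782 and 1798 to 1812 of 2253, 2262 and 2292. In Ide, whose family carries the motif in inverted order, it lies early, at bases 199 to 213 of 2937. Ece1 and Ece2 were identical at 49 of the 63 bases (77.8%), and the longest unbroken run they share within the stretch was 8 bases. Mme was identical to Ece1 at 37 bases (58.7%) and to Ece2 at 45 (71.4%), with longest shared runs of 6 and 9 bases within the stretch. Over the whole of the transcripts these stretches were taken from, the longest shared run was 17 bases for Ece1 with Ece2 and 12 bases for Mme with either.

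Counting limits apply to Ece2 (ENSMUSG00000022842, chromosome 16). In the annotation used for names and lengths, 2937 of its 5110 exon bases (57.5%) also belong to Gm49333 (ENSMUSG00000115293), a read-through gene on the same strand that joins Ece2 with its neighbour Eef1akmt4 and has 0 exon bases of its own. Gm49333 was listed with 0 reads in all 20 libraries. The zinc-site stretch of Ece2 printed above is also present in Gm49333. Of the 2292 coding bases of Ece2, the first 39 come before the first stretch found in Gm49333. Gm49333 in turn has 495 exon bases from Eef1akmt4. The 39 bases of Ece2 before the shared part are as follows.
Ece2, first coding bases: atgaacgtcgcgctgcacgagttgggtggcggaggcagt
The option used for reads that fall in both genes is not named in the sources used here. Reads classed as ambiguous were left unassigned and made up 4.12% to 4.58% of a library, and Gm49333 had 0 reads. Ece2 values are therefore uncertain. They likely cover only the 2173 exon bases outside Gm49333, if the annotation used for counting has the same overlap. Sorl1 (ENSMUSG00000049313, chromosome 9) overlaps the antisense gene Gm16214 over 185 of its 11321 exon bases (1.63%), and Gm16214 had at most 5 reads in a library. The other 5 genes share no exon bases with an annotated gene: Mme (ENSMUSG00000027820, chromosome 3), Ece1 (ENSMUSG00000057530, chromosome 4), Ide (ENSMUSG00000056999, chromosome 19), Lrp1 (ENSMUSG00000040249, chromosome 10) and Clu (ENSMUSG00000022037, chromosome 14).

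The libraries held 6414215 to 15148078 reads assigned to genes. In cortex the depth of the groups did not overlap, at 12283392 to 15148078 reads with HSP70 and 6414215 to 10763465 with YB-1, so treatment and a separate preparation cannot be told apart there. Bc1, a short neuronal RNA, took 3.92% to 20.8% of the reads, and its share was above 20% in hippocampal HSP70 replicate 5 (20.3%) and hippocampal YB-1 replicate 4 (20.8%). Sums of cortical and hippocampal marker genes were higher in the tissue of their name. The 10 cortical layer genes summed to 504 to 658 CPM in the cortical libraries and 241 to 338 CPM in the hippocampal ones. In the same order, 10 hippocampal pyramidal cell genes summed to 482 to 713 and 786 to 1078 CPM. Single genes were mixed. Of the 10 cortical layer genes, 7 were lower in hippocampus with HSP70 and 6 with YB-1, and 1 was called higher there with each. Of 8 pyramidal cell genes tested, 7 were higher in hippocampus with each protein. Of 9 dentate granule cell genes tested, 5 were higher in hippocampus with HSP70 and 7 with YB-1, and 1 was called lower with HSP70. Markers of other regions were present too: 10 thalamic neuron genes summed to 169 to 536 CPM in hippocampus and 87.1 to 112 CPM in cortex (5 of 10 were called higher in hippocampus with each protein), and striatal neuron genes to 247 to 870.1 CPM in cortex, highest in a YB-1 library. Oligodendrocyte genes summed to 1448 to 2592 CPM in cortex and 3892 to 7264 CPM in hippocampus, and choroid plexus genes to 11.2 to 164 CPM and 43.1 to 1720.4 CPM. CPM here is the usual depth-normalised read count, with the library total scaled by TMM, a correction for differences in composition.

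The 7 genes spanned a wide range of expression. Per kilobase of exon, which allows genes of different length to be compared, Clu averaged 646 CPM per kb over the 20 libraries, Lrp1 17.2, Sorl1 16.5, Ece1 5.91, Ide 4.04, Ece2 0.153 and Mme 0.101. Clu ranked 20th among all genes by mean CPM, Lrp1 516th and Sorl1 901st, whereas Mme ranked 13690th and Ece2 14462nd. The chaperone was therefore among the most abundant transcripts of these tissues, and the receptors were abundant. By these counts Mme and Ece2 were near the limit of detection, and those of Ece2 likely leave out the bases shared with Gm49333.

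The order of levels per length was nearly the same in the 4 groups. Clu lay 31.6 to 41.3 times above the next gene and did not overlap it in any group. Lrp1 and Sorl1 were neighbours whose ranges overlapped in all 4 groups, with ratios of mean levels of 1.06 to 1.14, and their order was reversed in cortex with HSP70. Both lay above Ece1, by 2.48 to 2.98 times for the lower of the pair, without overlap. Ece1 lay above Ide by 1.26 to 1.67 times, and their ranges overlapped in every group except cortex with HSP70. Ide was 12.9 to 42.5 times above the next gene, and Ece2 and Mme overlapped in all 4 groups at the bottom of the order. Per base outside Gm49333 the group means of Ece2 were 0.728, 0.307, 0.220 and 0.182 CPM per kb. The order of groups is hippocampus HSP70, hippocampus YB-1, cortex HSP70, cortex YB-1, and each mean was still below that of Ide. Each was above that of Mme, at 0.107, 0.102, 0.1005 and 0.0943 CPM per kb. In hippocampus with HSP70 the ranges of Ece2 and Mme then did not overlap, at 0.281 to 1.59 and 0.0176 to 0.240 CPM per kb.

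**Figure D1:**
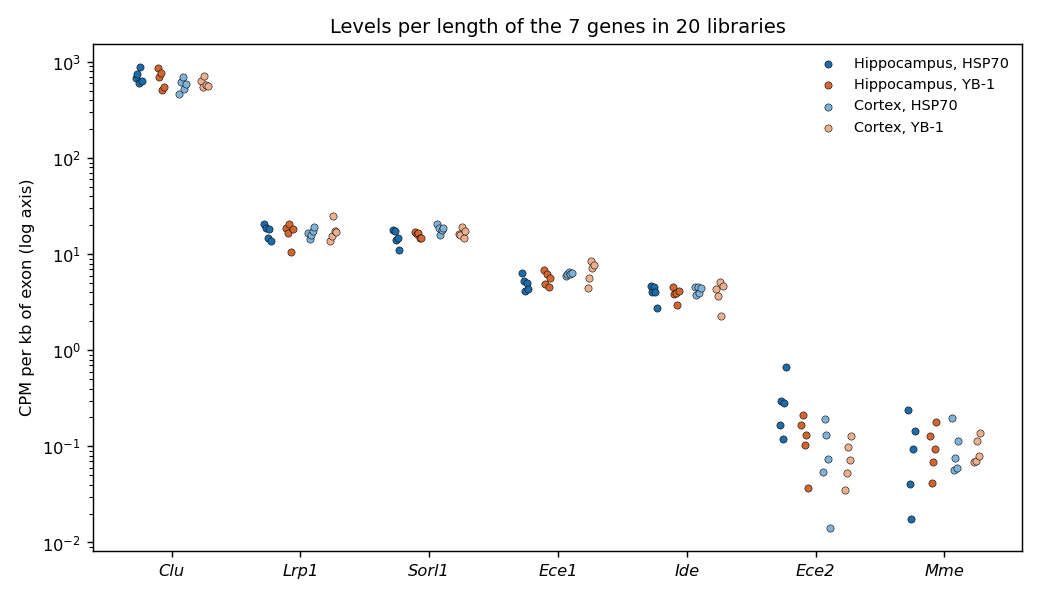
Level per length (CPM per kilobase of exon, log axis) of each gene in each of the 20 libraries; each point is a library, coloured by group. Clu stands far above the others, Lrp1 and Sorl1 lie together near 17 CPM per kb, and Ece2 and Mme lie below 1 CPM per kb in every library.

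Mme encodes neprilysin, a membrane metalloprotease that cuts many small peptides. In hippocampus it stood at 2.77, 0.471, 0.203, 1.09 and 1.65 CPM in HSP70 replicates 1 to 5 and at 1.50, 0.483, 0.799, 1.08 and 2.05 CPM in YB-1 replicates 1 to 5. In cortex it stood at 2.28, 0.661, 0.868, 0.683 and 1.30 CPM with HSP70 and at 0.802, 0.813, 1.31, 0.917 and 1.60 CPM with YB-1. The 4 groups overlapped throughout, and the highest and lowest libraries, 13.6-fold apart, were in the same group. These levels rest on 2 to 33 reads a library and 246 reads in all. Mme did not pass the low-count filter of the fits within a tissue. In the fit of all 20 libraries its log2 difference of hippocampus against cortex was 0.09 ± 0.53 (SE) with HSP70 and 0.12 ± 0.55 with YB-1, with 95% intervals of -1.0 to 1.17 and -1.01 to 1.26. At this depth a change of Mme of up to about a log2 unit in either direction was not detectable.

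Ece1 encodes an endothelin-converting enzyme, best known for releasing the active vessel-constricting peptide from its precursor. In hippocampus its levels were 33.8, 28.1, 21.9, 26.9 and 23.1 CPM with HSP70 and 36.3, 25.7, 33.3, 23.9 and 29.8 CPM with YB-1. In cortex they were 31.8, 32.8, 34.5, 33.0 and 34.1 CPM with HSP70 and 23.4, 29.8, 45.2, 37.9 and 41.1 CPM with YB-1. The HSP70 cortical libraries were tightly grouped (SD 1.09 CPM, n = 5), the YB-1 cortical libraries were the most scattered (SD 8.78 CPM, n = 5), and all groups overlapped. YB-1 against HSP70 gave a log2 difference of 0.16 ± 0.17 (95% interval -0.20 to 0.51) in hippocampus and 0.09 ± 0.17 (-0.26 to 0.44) in cortex.

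Ece2 encodes a related enzyme found mainly in neurons and endocrine cells. In hippocampus its levels were 0.859, 1.53, 0.610, 1.46 and 3.45 CPM with HSP70 and 0.854, 1.09, 0.532, 0.676 and 0.186 CPM with YB-1. In cortex they were 0.277, 0.991, 0.668, 0.379 and 0.0725 CPM with HSP70 and 0.178, 0.271, 0.504, 0.367 and 0.659 CPM with YB-1. The highest value, 3.45 CPM, was in hippocampal HSP70 replicate 5, a library with a Bc1 share of 20.3%, and the other 4 libraries of that group lay between 0.610 and 1.53 CPM. These values rest on 1 to 23 reads a library and 149 reads in all, and Ece2 did not pass the low-count filter within either tissue or over the 20 libraries. With no filter, the log2 difference of YB-1 against HSP70 in hippocampus was -1.21 ± 0.60 (edgeR adjusted p = 0.807), and in cortex it was -0.27 ± 0.77.

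Ide encodes insulin-degrading enzyme, a mostly soluble protease of insulin, amyloid-beta and other small peptides. In hippocampus its levels were 34.9, 30.3, 34.1, 30.2 and 20.6 CPM with HSP70 and 34.4, 29.0, 29.5, 22.0 and 31.2 CPM with YB-1. In cortex they were 34.0, 28.3, 33.9, 29.3 and 33.8 CPM with HSP70 and 32.5, 27.4, 38.7, 17.2 and 34.7 CPM with YB-1. The means of the 4 groups lay within 29.2 to 31.8 CPM, and in 3 groups a single library was well below the rest: hippocampal HSP70 replicate 5, hippocampal YB-1 replicate 4 and cortical YB-1 replicate 4. The log2 difference of YB-1 against HSP70 was -0.04 ± 0.17 (95% interval -0.40 to 0.32) in hippocampus and -0.08 ± 0.18 (-0.46 to 0.30) in cortex.

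Lrp1 encodes a large endocytic receptor that takes up amyloid-beta and apolipoprotein E, and moves amyloid-beta across the blood vessel wall. In hippocampus its levels were 365, 334, 259, 324 and 242 CPM with HSP70 and 329, 298, 367, 187 and 322 CPM with YB-1. In cortex they were 295, 255, 280.3, 306 and 344 CPM with HSP70 and 244, 277, 446, 311 and 305 CPM with YB-1. The lowest library of all was hippocampal YB-1 replicate 4 and the highest cortical YB-1 replicate 3, while the 4 group means lay within 296 to 317 CPM. The log2 difference of YB-1 against HSP70 was -0.02 ± 0.17 (95% interval -0.38 to 0.35) in hippocampus and 0.09 ± 0.16 (-0.24 to 0.43) in cortex.

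Sorl1 encodes a sorting receptor that steers the amyloid precursor protein away from amyloidogenic endosomes and directs amyloid-beta to lysosomes. In hippocampus its levels were 201, 199.8, 159.5, 165 and 127 CPM with HSP70 and 195, 184, 189, 168 and 169 CPM with YB-1. In cortex they were 233, 212, 180.4, 203 and 214 CPM with HSP70 and 182, 178, 218, 167 and 195 CPM with YB-1. Cortical HSP70 libraries were mostly the highest and hippocampal HSP70 replicate 5 was the lowest, with overlap between all groups. The log2 difference of YB-1 against HSP70 was 0.09 ± 0.13 (95% interval -0.20 to 0.37) in hippocampus and -0.15 ± 0.13 (-0.42 to 0.12) in cortex.

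Clu encodes clusterin, a secreted chaperone made largely by astrocytes, which binds amyloid-beta and other misfolded proteins. In hippocampus its levels were 2320.1, 2563, 2083, 3052 and 2207 CPM with HSP70 and 3016, 2375, 2651, 1777 and 1880.3 CPM with YB-1. In cortex they were 1604, 2147, 2395, 1813 and 2043 CPM with HSP70 and 2172, 1902, 2491, 1965 and 1934 CPM with YB-1. Hippocampal libraries reached the highest values, with 1 library of each treatment well above all cortical ones, but the low hippocampal libraries lay among the cortical ones. The log2 difference of YB-1 against HSP70 was -0.06 ± 0.16 (95% interval -0.40 to 0.27) in hippocampus and 0.06 ± 0.14 (-0.24 to 0.37) in cortex.

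**Figure D2:**
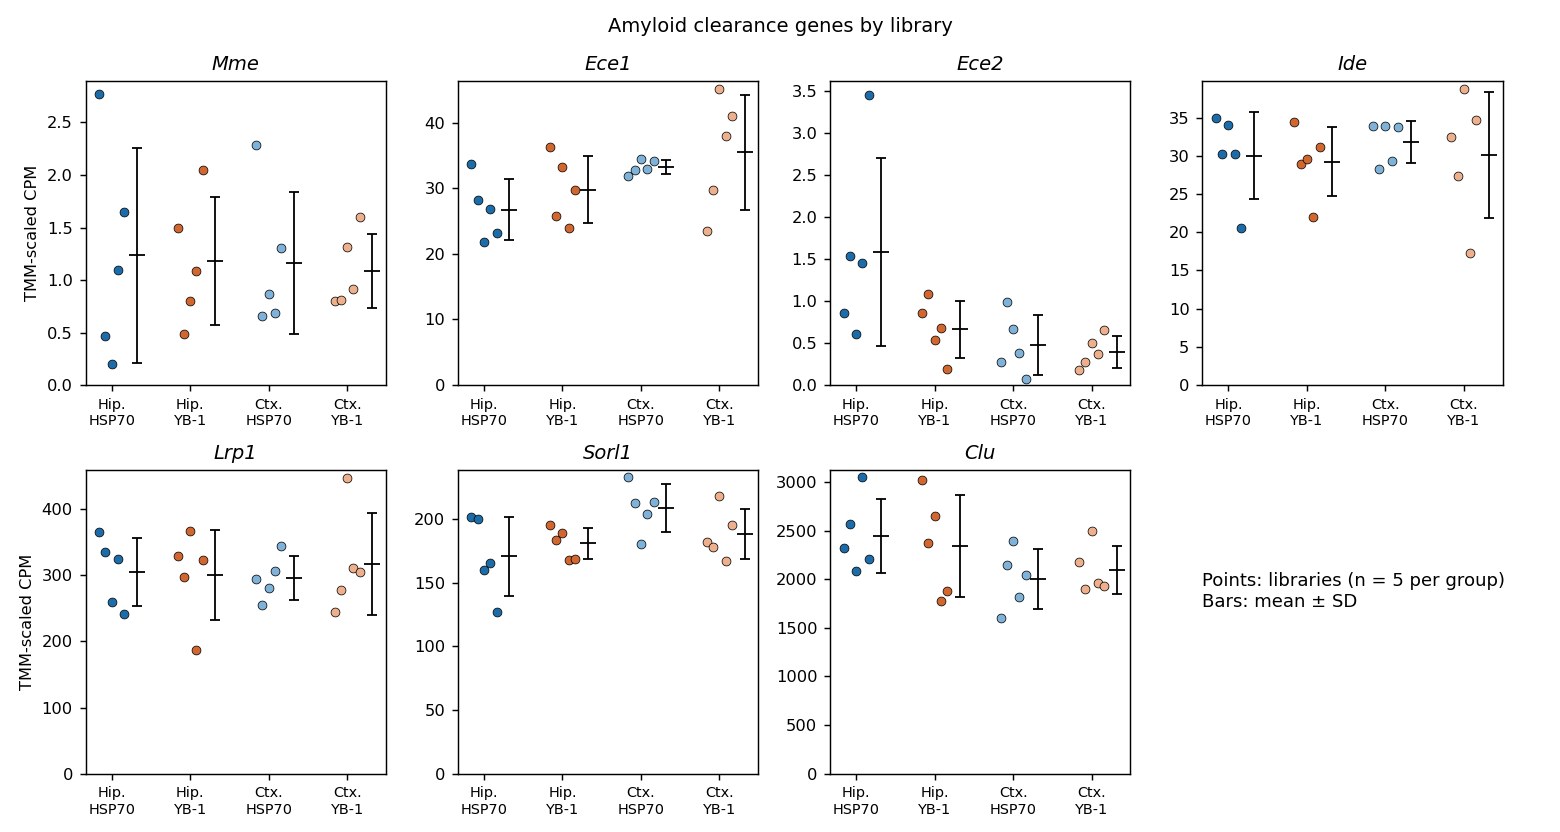
TMM-scaled CPM of each of the 7 genes in each library (points, 5 libraries a group, replicates 1 to 5 from left to right) with the group mean and SD (bars); each panel has its own linear axis from 0. Every gene's 4 groups overlap, and Mme and Ece2 stay below 4 CPM.

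The first comparison asks whether the 2 proteins left different levels of these transcripts within a tissue. Of the 7 genes, 5 passed the low-count filter within each tissue (Ece1, Ide, Lrp1, Sorl1 and Clu), and 0 of the 5 were called at an adjusted p of 0.05 (edgeR quasi-likelihood test, Benjamini-Hochberg over all genes tested) in hippocampus or cortex. Among all 13723 genes tested in hippocampus and 14114 in cortex the share called was also 0.0%, the same share as among these genes. At an unadjusted p under 0.05, none of the 5 passed in either tissue, against 329 (2.4%) and 774 (5.48%) of all genes. The adjusted p was 1 for each of the 5 in hippocampus and 0.894 to 0.967 in cortex, where that of Sorl1 was the smallest. In bulk tissue, fewer cells of a type and less RNA per cell cannot be told apart.

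The intervals bound what could have been missed. Over the 10 tests of these 5 genes the 95% intervals of the log2 difference reached no lower than -0.46 (Ide, cortex) and no higher than 0.51 (Ece1, hippocampus). The median log2 difference of the 5 was -0.02 in hippocampus and 0.06 in cortex, beside 0.00 and 0.01 over all genes tested. Groups did not overlap for 0 of the 7 genes in either tissue, beside 0.474% of all genes tested in hippocampus and 0.829% in cortex. With cortical counts thinned to the smallest library, which removes the difference in depth, the Sorl1 difference was -0.13 ± 0.13 and that of Lrp1 0.10 ± 0.16.

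The second comparison, between the tissues, gave the largest differences of this gene set, although none passed. Of the 6 genes tested (all but Ece2), 0 were called with HSP70, where 8.61% of all 14616 genes were called, and 0 with YB-1, where 6.51% were. At an unadjusted p under 0.05, 1 of the 6 passed with HSP70 (Sorl1) and 0 with YB-1, beside 20.1% and 16.7% of all genes. Sorl1 had the smallest adjusted p with HSP70, and was lower in hippocampus: 171 ± 31.1 against 209 ± 19.2 CPM (SD, n = 5 each), a log2 difference of -0.29 ± 0.12 (95% interval -0.54 to -0.04, edgeR adjusted p = 0.172). With the replicate number as a block it was -0.30 ± 0.12 (edgeR adjusted p = 0.0983). Sorl1 was lower in hippocampus in 5 of 5 same-numbered pairs with HSP70, as were 12.2% of all genes tested; 11.4% were higher in all 5. With YB-1 the difference was -0.06 ± 0.12 (95% interval -0.31 to 0.20), and Sorl1 was higher in hippocampus in 3 pairs and lower in 2. None of the 7 genes kept 1 direction in all 5 pairs with YB-1, where 8.99% of all genes were higher and 8.28% lower in all 5. Without hippocampal HSP70 replicate 5, the lowest Sorl1 library, the HSP70 difference was -0.20 (edgeR adjusted p = 0.417).

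Ece1 was also lower in hippocampus, at 26.8 ± 4.70 against 33.3 ± 1.09 CPM with HSP70 and 29.8 ± 5.14 against 35.5 ± 8.78 CPM with YB-1 (SD, n = 5 each). The log2 differences were -0.31 ± 0.17 (95% interval -0.65 to 0.03, edgeR adjusted p = 0.303) and -0.25 ± 0.17 (-0.59 to 0.09, edgeR adjusted p = 0.533). It was lower in hippocampus in 8 of 10 pairs. Without cortical YB-1 replicate 3 the YB-1 difference was -0.16. Endothelial cells are those in which Ece1 is best known. The 10 endothelial marker genes summed to 286 to 382 CPM in hippocampus and 340 to 467 CPM in cortex with HSP70. With YB-1 the sums were 341 to 394 and 371 to 435 CPM. With each protein 9 of the 10 were lower in hippocampus and 0 were called. Their part in the Ece1 result was not tested.

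Clu was higher in hippocampus, at 2445 ± 383 against 2000.5 ± 305 CPM with HSP70 and 2340.0 ± 521 against 2093 ± 246 CPM with YB-1 (SD, n = 5 each). The log2 differences were 0.29 ± 0.15 (95% interval -0.02 to 0.60, edgeR adjusted p = 0.286) and 0.16 ± 0.15 (-0.15 to 0.47, edgeR adjusted p = 0.721), and Clu was higher in hippocampus in 7 of 10 pairs. Without hippocampal YB-1 replicate 1 the YB-1 difference was 0.0463. The 10 astrocyte marker genes summed to 4714 to 5216 CPM in hippocampus and 3676 to 4467 CPM in cortex with HSP70, without overlap, and to 3899 to 5523 and 4001 to 4703 CPM with YB-1. Of those 10 markers 7 had a difference above 0 with HSP70 and 5 with YB-1, with median log2 differences of 0.06 and 0.01. Of the 10, 1 was called with HSP70 and 0 with YB-1, and their part in the Clu difference was not tested.

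Ece2 had the largest fold of the set between tissues. With HSP70 it averaged 1.58 ± 1.12 CPM in hippocampus and 0.478 ± 0.359 CPM in cortex, and with YB-1 0.667 ± 0.339 and 0.396 ± 0.190 CPM (SD, n = 5 each). The hippocampal HSP70 mean leans on replicate 5, at 3.45 CPM from 23 reads, and the median of that group was 1.46 CPM. With no low-count filter the log2 differences were 1.66 ± 0.62 (95% interval 0.42 to 2.90, edgeR adjusted p = 0.148) and 0.71 ± 0.68 (edgeR adjusted p = 0.698). In a fit of the 10 HSP70 libraries alone, in which Ece2 passed the filter, the difference was 1.68 ± 0.60 (edgeR adjusted p = 0.113). Ece2 had 6 to 23 reads a library in hippocampus and 1 to 12 in cortex there. It thus passed that filter mainly through the group where it was higher, and the value is no separate support. Ece2 was higher in hippocampus in 8 of 10 pairs, with the counting limits given above. Ide and Lrp1 differed little between tissues: the log2 differences were -0.08 ± 0.18 and 0.04 ± 0.17 with HSP70 and -0.05 ± 0.18 and -0.07 ± 0.17 with YB-1. Their 95% intervals lay within -0.45 and 0.39.

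**Figure D3:**
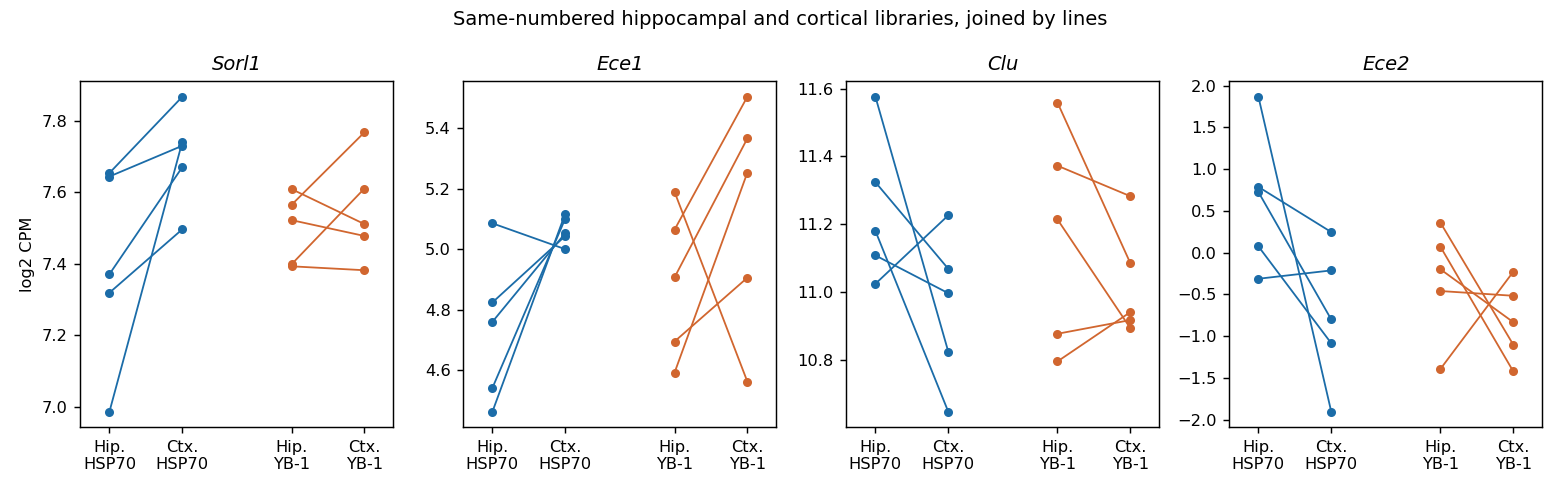
Levels (log2 CPM) of Sorl1, Ece1, Clu and Ece2 in same-numbered hippocampal and cortical libraries, joined by lines, for HSP70 (blue) and YB-1 (orange). All 5 Sorl1 lines rise from hippocampus to cortex with HSP70, whereas with YB-1 3 fall and 2 rise; each panel has its own axis.

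Exact permutation tests of single genes gave a similar picture without a model. For each of the 7 genes in each of the 4 comparisons, all assignments of the 10 libraries to 2 groups were enumerated on log2 CPM. The smallest two-sided p this allows is 0.00794. The replicate numbers were not used, so same-numbered libraries of the 2 tissues were treated as independent. The 3 smallest exact p were all for hippocampus against cortex with HSP70: 0.0317 for Ece1, 0.0397 for Ece2 and 0.0476 for Sorl1. After adjustment over the 28 tests each was 0.444. On CPM scaled by total reads alone, the exact p of Ece1 and Sorl1 were 0.167 and 0.325, and that of Ece2 was 0.0238; Ece2 for YB-1 against HSP70 in hippocampus was at 0.0397. After adjustment over 28 tests on that scale the smallest was 0.556. The groups overlapped for 7 of 7 genes in each tissue comparison, where 8.74% of all genes with HSP70 and 6.43% with YB-1 did not overlap.

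Whether the tissue difference itself depended on the protein given was tested as an interaction. Of the 6 genes tested, 0 were called, as were 0.0% of all 14616 genes, and 0 passed at an unadjusted p under 0.05, beside 1.55% of all genes. The largest was Sorl1, with a log2 interaction (the YB-1 difference between tissues minus the HSP70 one) of 0.23 ± 0.17 (95% interval -0.13 to 0.59, edgeR adjusted p = 1). The Sorl1 pattern of 5 of 5 pairs with HSP70 and 2 of 5 with YB-1 is thus not shown to differ between the treatments. For Clu the interaction was -0.13 ± 0.21, for Lrp1 -0.12 ± 0.24, for Ece1 0.06 ± 0.23 and for Ide 0.03 ± 0.25.

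**Figure D4:**
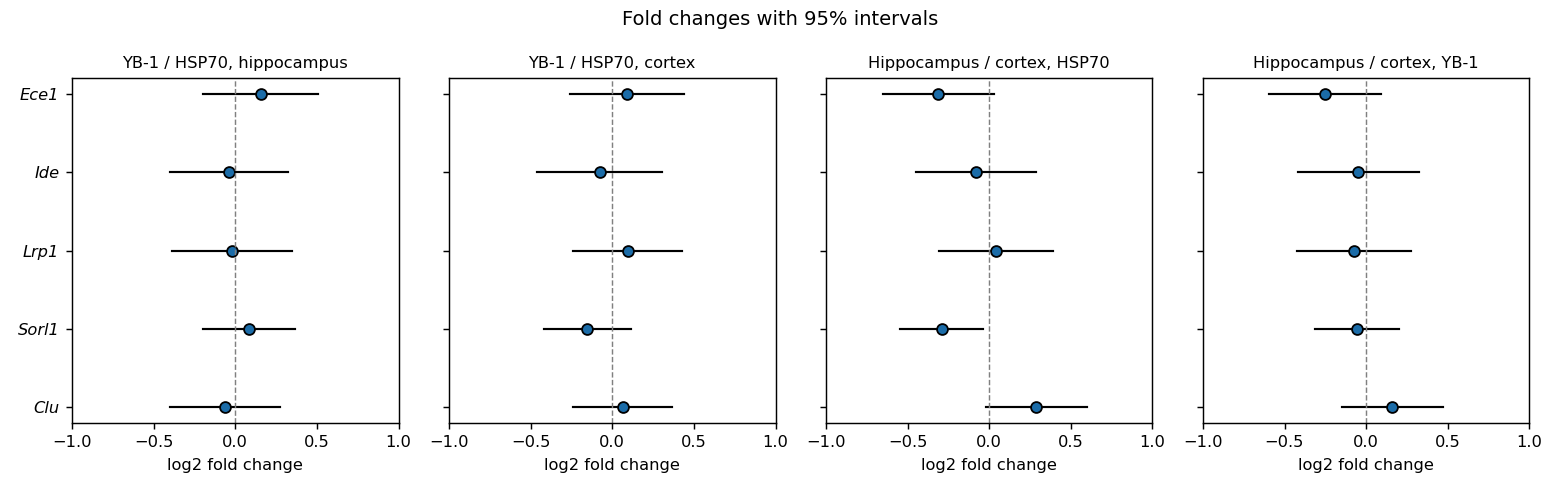
Log2 fold change (points) with 95% interval (lines) of the 5 genes tested in all comparisons, for YB-1 over HSP70 in each tissue and for hippocampus over cortex with each protein. All intervals cross 0 except that of Sorl1 for the tissues with HSP70 (-0.54 to -0.04), whose adjusted p was 0.172.

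Within groups, the libraries were not equally spread, and several of the genes moved together. After the group means were subtracted, Ece1 and Lrp1 had a Pearson r of 0.79 over the 20 libraries, Ide and Sorl1 0.64, and Lrp1 and Sorl1 0.61. The r of Ece1 with Lrp1 was 0.83 in hippocampus and 0.77 in cortex. The r of Clu was 0.50 with Lrp1, 0.42 with Ece1, 0.34 with Ide and 0.25 with Sorl1, and that of Ece1 with Ide was 0.30. In hippocampus alone Clu had an r of 0.64 with Lrp1 and 0.60 with Ece1. These values, given as a description, come from genes measured in the same libraries, which share depth, composition and scaling.

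The genes most like each member, among those averaging at least 10 CPM, were found in the same way. For Lrp1 they were Hectd4 (r = 0.95), Prrc2b (0.94) and Htt (0.93). For Sorl1 they were Ctnnd2 (0.96), Rapgef2 (0.93) and Ankrd50 (0.92). For Ide they were Notch2 (0.91), Nrg3 (0.90) and Tmcc1 (0.89), and for Ece1 Taok3 (0.88), Srrm1 (0.86) and Lrp4 (0.86). These 12 genes have exon lengths of 6817 to 24438 bases, beside a median of 4377 bases over the genes tested. For Clu, a shorter transcript of 3437 bases, the closest were Pdpn, Vash1 and Sft2d2 (each 0.82). Mme was closest to Fip1l1 (0.77), Bod1l (0.76) and Top1 (0.76), and Ece2 to Cmss1 (0.72), Col9a3 (0.63) and Gla (0.62), from few reads.

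Transcript length and the share of Bc1 moved with these within-group differences. A library index was taken as the median group-centred log2 level of long genes minus that of short genes. The long genes were 2602 genes of at least 8000 exon bases, and the short ones 2186 genes of at most 2000 bases. The index was lowest in hippocampal HSP70 replicate 5 (-0.55) and highest in cortical HSP70 replicate 1 (0.44). It was -0.38 in hippocampal YB-1 replicate 4. Ide lay above its group mean in 8 of the 8 libraries with an index above 0, Ece1 and Sorl1 in 7, Lrp1 in 6 and Clu in 4. In the 12 libraries with an index below 0, Sorl1 lay below its group mean in 9, Ece1 in 8, Lrp1 in 7, and Ide and Clu in 6. The Pearson r with Bc1 was -0.78 for Ide, -0.73 for Sorl1, -0.65 for Lrp1, -0.52 for Ece1 and -0.33 for Clu over the 20 libraries. For Mme it was -0.30 and for Ece2 0.31, from few reads. Of 8506 genes, Bc1 ranked 143rd from the most opposite for Ide, 434th for Sorl1, 444th for Lrp1, 967th for Clu and 1216th for Ece1. Many other genes were thus more opposite to each of these. The part of length and of Bc1 in the spread of these genes was not tested. The hippocampal HSP70 and YB-1 groups each contain 1 library with over 20% Bc1. Without both, the YB-1 against HSP70 difference in hippocampus was 0.04 ± 0.13 for Lrp1, 0.02 ± 0.12 for Sorl1 and -0.06 ± 0.13 for Ide. Without them the Sorl1 difference between tissues with HSP70 was -0.20 ± 0.12 (edgeR adjusted p = 0.392).

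**Figure D5:**
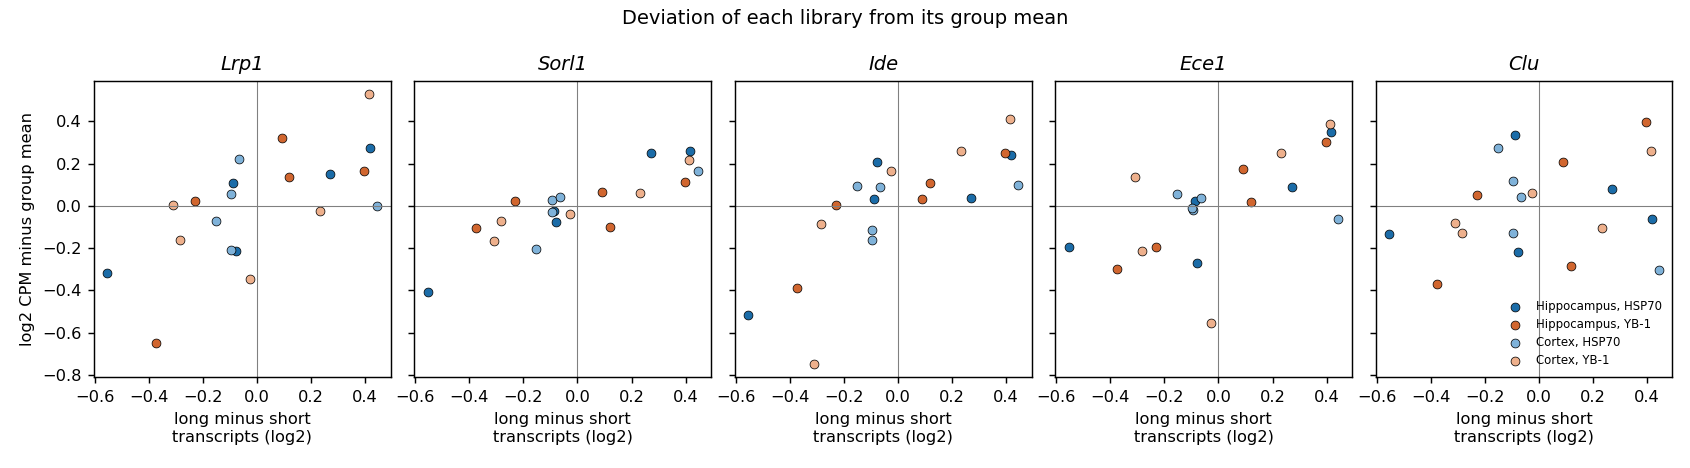
Deviation of each library from its group mean for Lrp1, Sorl1, Ide, Ece1 and Clu (log2 CPM, vertical axis) against the index of long minus short transcripts (log2, horizontal axis); each point is a library, coloured by group. All 8 libraries with an index above 0 lie above their group mean for Ide, and hippocampal HSP70 replicate 5, at an index of -0.55, is the lowest Sorl1 library.

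Other genes linked to amyloid removal or to these proteases, in 6 lists of 78 genes besides these 7, were read from the same fits. Between treatments 0 of 73 tested in hippocampus and 0 of 74 in cortex were called, as for all genes. The proteases with the smallest p in hippocampus included Bace2, which can cut within amyloid-beta, at -0.68 ± 0.20. The smallest in cortex among protease inhibitors was Serpina3n, a serpin of reactive astrocytes, at 0.93 ± 0.26 (edgeR adjusted p = 0.858). For Edn1, the precursor that Ece1 cuts, the hippocampal value was 1.43 ± 0.55 with means of 0.702 CPM under HSP70 and 1.95 CPM under YB-1, and the edgeR adjusted p was 1.

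Between tissues, 7 of 74 other genes were called with each protein (9.46%), 4 higher and 3 lower in hippocampus, near the 8.61% and 6.51% of all genes. Among amyloid-degrading proteases the called genes were Plat, tissue plasminogen activator (0.63 ± 0.17, edgeR adjusted p = 0.0206), and Bace2 (0.62 ± 0.20, edgeR adjusted p = 0.0484), both higher in hippocampus with HSP70. Of that list of 20, 18 were tested, with a median log2 difference of 0.00, and with YB-1 0 were called (median 0.07). Of 10 protease inhibitors, 2 were called with each protein, both higher in hippocampus, while 8 of 10 had a difference above 0 with HSP70 and 6 of 10 with YB-1. These were A2m, alpha-2-macroglobulin (2.27 ± 0.42 with HSP70 and 1.61 ± 0.41 with YB-1), and Serpina3n (1.45 ± 0.28 and 0.91 ± 0.27).

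The receptor and transport list, which holds Lrp1, had 0 of 15 tested genes called with either protein, and the sorting receptor and retromer list, which holds Sorl1, had 0 of 13. Their median log2 differences were 0.01 and 0.03 with HSP70 and -0.07 and 0.04 with YB-1. In the list of chaperone and lipoprotein genes, which holds Clu, 0 of 12 were called with HSP70 and 3 with YB-1. With YB-1 Lcat, which esterifies cholesterol, was 0.78 ± 0.21 and Ttr, an amyloid-beta-binding carrier made by the choroid plexus, was 4.86 ± 1.28, both higher in hippocampus, and Ptgds, a lipid carrier and synthase, was lower at -1.0 ± 0.22. Ttr is itself a choroid plexus marker, and the choroid plexus sum with YB-1 was 144 to 1069 CPM in hippocampus and 11.2 to 50.8 CPM in cortex. Ttr was chosen for naming after its value was seen.

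The list of endothelin and neuropeptide partners holds peptide genes, some of them substrates of these proteases, and receptor genes. Of its 13 genes, 3 were called lower in hippocampus with HSP70 and 2 with YB-1, and 0 were called higher with either. Of the 13, 7 and 10 had a difference below 0, with medians of -0.11 and -0.34 beside 0.01 and 0.00 over all genes tested. Npy fell by 1.76 ± 0.24 and 1.44 ± 0.24 on the log2 scale and Sst, the precursor of somatostatin, by 0.61 ± 0.16 and 0.55 ± 0.16, with HSP70 and YB-1. Edn1 fell by 1.56 ± 0.47 with HSP70, and was named after its value was seen. Npy and Sst also mark inhibitory neurons: the 10 GABAergic marker genes, which include both, summed to 507 to 695 CPM in hippocampus and 838 to 1107 CPM in cortex with HSP70. With YB-1 they overlapped, at 444 to 617 and 602 to 756 CPM. Their part in the result was not tested.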

How the data were processed

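Per the labels, poly(A) RNA with an integrity number of at least 8 was made into directional single-end libraries. The authors deposited whole-number read counts per Ensembl gene for each library; the tools named in the submitters' processing notes are Trimmomatic, STAR and featureCounts, and the assembly is GRCm39. Neither versions nor annotation release nor strand setting appear in the sources used here. The 12 summary entries were left out. Unassigned reads outside genes were 2.45% to 4.58% of a library. Symbols and exon lengths came from GENCODE M21 (GRCm38), matched by identifier (99.4% of entries), so no coordinates are printed.

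Counts were tested with edgeR 4.0.16 (R 4.3.3; TMM, filterByExpr, robust quasi-likelihood F-test, two-sided, threshold 0.05), within each tissue for treatments and over all 20 libraries for tissues. Log2 CPM used a prior count of 2. Alternatives were DESeq2 1.42.0, limma 3.58.1 (voom), median-ratio size factors, no or a stricter low-count filter, thinned counts, leaving out Bc1 and immunoglobulin genes, a replicate block, other sets of libraries in the fit and leaving out each library. The fits were tested on simulated data. Libraries of a group all differed by more than sampling noise (smallest chi-square per degree of freedom 10.1 over 40 pairs). The labels number replicates alike in each group, and the pairing was checked on group-centred levels. Same-numbered hippocampal and cortical libraries correlated at 0.198 to 0.624 with HSP70 and 0.207 to 0.394 with YB-1, all 10 pairs above 0.1. Of the 5 hippocampal libraries, 5 with HSP70 and 4 with YB-1 correlated best with the cortical library of their own number. The numbers thus tend to pair the tissues, but the labels name no animals. The main tests between tissues did not use the pairing, and the replicate block did. The genes, the lists and the tests were chosen with earlier results of these data known. Named besides the 7 genes are the 3 most like each of them and, in each list and comparison, at most 2 genes of smallest p, unless stated.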

Additional observations from a re-analysis of the deposited data

How the results depend on the processing

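Over 778 tests of the 7 genes across all settings, 0 had an adjusted p under 0.05, and the smallest was 0.0852 (Sorl1 between tissues with HSP70, without hippocampal HSP70 replicate 1). The count of genes called for YB-1 against HSP70 in cortex was 0, and became 9 with no low-count filter, 4 with DESeq2, 2 with limma-voom and 1 with thinned counts; leaving out 1 library gave 0 to 1. In hippocampus it was 0 in every setting, with 329 genes at an unadjusted p under 0.05 in edgeR, 390 in DESeq2 and 688 in limma-voom; for the interaction it was 0 in every setting, with 227, 276 and 302. Between tissues leaving out 1 library gave 1034 to 1387 calls under HSP70 and 714 to 1067 under YB-1. With the replicate block the counts were 1777 and 1224, 0 for both treatment comparisons and 0 for the interaction, and the block changed no call of the 7 genes. The numbers do not pair the treatments (r above 0.1 in 1 of 5 pairs in hippocampus and 3 of 5 in cortex; 1 and 0 libraries correlated best with their own number).

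Between tissues, Sorl1, Ece1 and Clu kept their signs in all settings run; leaving out 1 library moved them over -0.36 to -0.20, -0.41 to -0.25 and 0.20 to 0.36 with HSP70 and over -0.0969 to -0.00755, -0.37 to -0.16 and 0.0463 to 0.25 with YB-1. Signs turned only for differences that were never called, and the cause was not tested. With limma-voom Lrp1 was 0.0711 for YB-1 against HSP70 in hippocampus, Ece1 -0.0613 and Ide 0.0027 in cortex; between tissues Mme was -0.32 and Ide 0.0177 with HSP70 and Lrp1 0.0958 with YB-1, and the interaction was -0.0730 for Ide and 0.0438 for Lrp1. With the replicate block Mme between tissues with HSP70 was -0.0638. Without both libraries of over 20% Bc1, a setting chosen after seeing the data, Mme was 0.0962 and Lrp1 0.0353 for treatment in hippocampus, Mme -0.0226 and Ide 0.0217 between tissues with HSP70, and Ide 0.0358 and Lrp1 0.0564 with YB-1. On CPM scaled by total reads, the exact permutation difference was -0.0128 for Mme between treatments in cortex and 0.0277 for Ide between tissues with YB-1.

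Leaving out each library in turn moved the log2 difference of YB-1 against HSP70 in hippocampus over -0.172 to 0.0296 for Clu, -0.146 to 0.0438 for Ide, -0.10 to 0.11 for Lrp1, -0.33 to 0.15 for Mme and -0.00707 to 0.152 for Sorl1. In cortex it moved over -0.0116 to 0.137 for Clu, -0.0124 to 0.209 for Ece1, -0.180 to 0.0610 for Ide, -0.0596 to 0.174 for Lrp1 and -0.272 to 0.0182 for Mme. Between tissues with HSP70 the ranges were -0.145 to 0.0217 for Ide, -0.0311 to 0.114 for Lrp1 and -0.47 to 0.48 for Mme, and with YB-1 -0.190 to 0.0474, -0.156 to 0.0719 and -0.18 to 0.32. For the interaction they were -0.0554 to 0.162 for Ece1, -0.11 to 0.14 for Ide, -0.198 to 0.0345 for Lrp1 and -0.36 to 0.58 for Mme. Depth limits Mme and Ece2, whose differences rest on at most 33 and 23 reads a library.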
